A study of Mus musculus with 2 samples.

Results

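The 10 genes described here encode STAP-1, STAP-2 and 8 further adaptor proteins that work below immune receptors and tyrosine kinases, out of 23284 genes listed in the deposited tables. They were taken by gene symbol (Stap1, Stap2, Lat, Lat2, Blnk, Lcp2, Grap, Grap2, Gab2 and Sh3bp2), and all 10 symbols were found. The list of symbols was chosen with earlier results of these data known. The RNA-seq comprised 2 libraries of CML LSCs, the leukemic stem cells of mice with transplanted chronic myeloid leukemia, 1 WT and 1 STAP-1 KO. Donor cells of both genotypes were C57BL/6J LSK cells (lineage-negative, Sca-1-positive and c-Kit-positive bone marrow cells) carrying a retrovirus for BCR-ABL and GFP, and the KO donors had a targeted disruption of Stap1. The recipients were lethally irradiated C57BL/6SJL mice given support marrow, mice in the study were 8 to 14 weeks old, and GFP+ CD45.2+ LSK cells were sorted 11 days after transplantation. GFP marks cells that took up the retrovirus and CD45.2 marks donor cells. Kit and Ly6a (Sca-1), on which the cells were sorted, were present in both libraries, beside 12 mast cell and basophil markers, Kit among them, that summed to 52789 FPKM in WT and 5328 FPKM in KO LSCs. The number of mice behind each library is not given in the sources used here. With 1 library per genotype nothing was replicated and no test could be made, so that the genotype cannot be told apart from the mice, the sort or the library. Y-linked Eif2s3y was present in both libraries (69.3 and 44.9 FPKM), and Xist, which marks female cells, was listed at 0 in WT LSCs and had 0.849 FPKM in KO LSCs.

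Adaptor proteins have no enzymatic activity of their own. They carry binding domains and tyrosines that become phosphorylated, and so bring enzymes to an activated receptor or kinase. In mast cells, T cells and platelets, Syk family kinases phosphorylate the membrane adaptor LAT and the cytosolic adaptor SLP-76 (gene Lcp2), which the bridging adaptor GADS (gene Grap2) links to each other, and the complex recruits phospholipase C-gamma. LAT2 is a second membrane adaptor of mast cells, B cells and myeloid cells, and BLNK takes the place of SLP-76 in B cells. GAB2 binds GRB2 and recruits PI3K and the phosphatase SHP2. GRB2 binds BCR-ABL and links GAB2 to it, and GAB2 is a known adaptor of CML.

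Values are FPKM, fragment counts divided by exon length and by the size of the library, so that levels can be compared between genes. Where a pair of values is given, WT LSCs come first and STAP-1 KO LSCs second. Ratios are log2((STAP-1 KO + 0.1)/(WT + 0.1)) on the FPKM scale. The files state no read number, but low values fell on steps that placed the effective depth at 7490000 reads in WT LSCs and 10470000 reads in STAP-1 KO LSCs. Of the low values, 45.8% of 356 in WT LSCs and 48.9% of 380 in KO LSCs came out whole within 0.01 of a read at these depths, which had been fitted to the same values. Reads and 95% intervals given below are estimates from these depths and the longest annotated transcript, and they cover counting error only.

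Stap1, the targeted gene, was examined first as a check of the labels. It had 62.0 FPKM in WT LSCs and 0.309 FPKM in KO LSCs, about 1458 and 10.2 estimated reads. The WT value was 201 times the KO value (95% counting interval from 111 to 426, or from 62.4 to 1884 with the shortest coding transcript, which leaves 2.27 reads in KO LSCs). The libraries thus differed as labelled, with a low residual signal in the library of STAP-1 KO cells. Stap1 has 6 transcripts in the annotation, on the plus strand of chromosome 5 (GRCm38, from 86071746 to 86106125). Which exons the residual reads came from was not analysed here, since the files give 1 value per gene.

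Which adaptors the cells expressed differed by orders of magnitude. In the WT library Lat2 was the most abundant of the 10 with 503 FPKM, at rank 137 of all 23284 genes. Lcp2 followed with 211 FPKM at rank 422 and Lat with 169 FPKM at rank 558. These 3 genes made up 86.2% of the FPKM summed over the 10 genes in WT LSCs and 90.9% in KO LSCs. Stap1 (62.0 FPKM) and Gab2 (52.3 FPKM) came next, both among the 10% of genes with the highest values in WT LSCs, and Grap, a GRB2-like adaptor, had 20.3 FPKM. Sh3bp2 with 3.57 FPKM and Stap2 with 2.60 FPKM were low, and their counting intervals (2.83 to 4.49 and 1.71 to 3.78 FPKM) overlapped. Grap2 had 0.787 FPKM, and Blnk was listed at 0 FPKM. The cells therefore contained abundant mRNA for LAT, LAT2 and SLP-76 and little for GADS, BLNK, SH3BP2 and STAP-2.

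**Figure D1:**
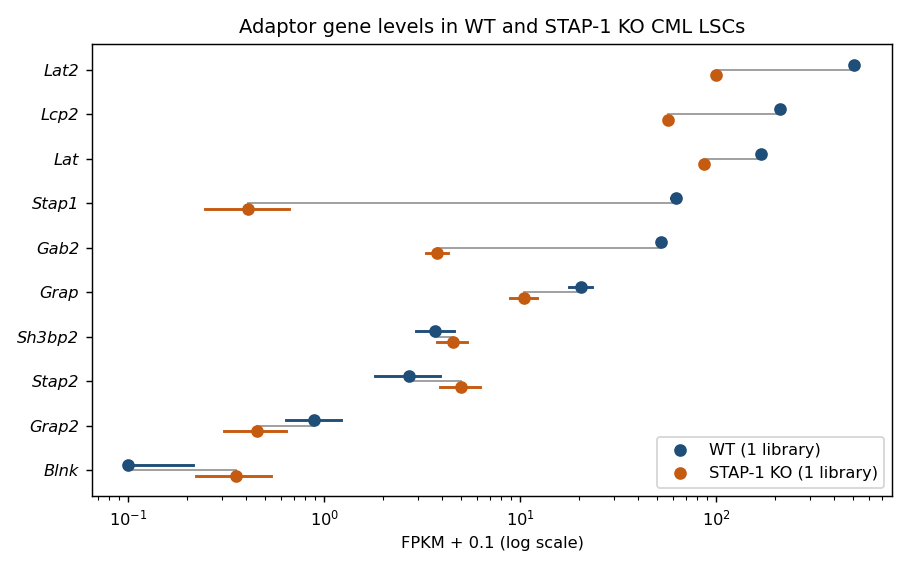
Each row is an adaptor gene, and the points give FPKM + 0.1 on a log axis in WT LSCs (blue) and KO LSCs (orange), with lines for the 95% counting interval of the estimated reads. Lat2, Lcp2 and Lat lie above 50 FPKM in both libraries, while Stap1 and Gab2 are farthest apart between them.

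In the STAP-1 KO library the same 3 genes were the highest, but closer to each other. Lat2 had 99.4 FPKM (94.5 to 104), Lat 86.7 FPKM (82.6 to 91.0) and Lcp2 56.9 FPKM (54.5 to 59.4). Lat2 was 2.97 times Lat in WT LSCs and 1.15 times Lat in KO LSCs, and Lat lay above Lcp2. The counting intervals do not cover reads of Rfc2, a gene that overlaps Lat2 on the other strand, as described below. The order of Lat2 and Lat in KO LSCs is therefore not resolved. Below them came Grap with 10.3 FPKM, then Stap2 (4.91 FPKM), Sh3bp2 (4.41 FPKM) and Gab2 (3.66 FPKM). Counting intervals of Stap2 (3.81 to 6.16 FPKM), Sh3bp2 (3.67 to 5.22 FPKM) and Gab2 (3.19 to 4.16 FPKM) overlapped, so that their order is not resolved. Grap2 (0.352 FPKM), Stap1 (0.309 FPKM) and Blnk (0.253 FPKM) were lowest, with 19.4, 10.2 and 11.5 estimated reads, and were not told apart either. Summed FPKM over the 9 genes other than Stap1 was 963 in WT LSCs and 267 in KO LSCs.

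To see which adaptors differed with the loss of Stap1, the 2-fold cut-off of the study was applied to genes with at least 0.1 FPKM in both libraries, which 9 of the 10 genes passed. The cut-off was set on the FPKM ratio itself, with no pseudocount. Stap1, Lat2, Lcp2, Grap2 and Gab2 lay 2-fold or more below WT in KO LSCs, 5 genes in all, and none lay 2-fold or more above. Grap2 was the marginal call, at 2.23-fold on the FPKM ratio but -0.97 on the log2 scale with 0.1 FPKM added, which is short of 2-fold. Among all 12507 genes compared in this way, 35.2% were past the cut-off, 22.9% lower and 12.3% higher. Without Stap1, whose loss is the genotype, 4 of 8 genes were lower. At a 4-fold cut-off 3 of the 9 genes (Stap1, Lat2 and Gab2) were lower, against 8.56% of all genes, and none was higher, against 2.4%. Lat and Grap fell just short of the 2-fold cut-off, with WT values 1.95 and 1.97 times the KO values. Leaving out Stap1, the 7 genes averaging 1 FPKM or more had a median log2 ratio of -0.97, against -0.04 for the 10974 genes of the whole tables with that mean.

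Gab2 showed the largest difference after Stap1. Its level was 52.3 FPKM in WT LSCs and 3.66 FPKM in KO LSCs, about 2333 and 228 estimated reads. The WT value was 14.3 times the KO value (95% counting interval from 12.5 to 16.5), and its log2 ratio was -3.80. Gab2, which lies on the plus strand of chromosome 7 (from 97081586 to 97308946), has a long transcript of 6168 bases. Among all genes listed it went from rank 2251 in WT LSCs to rank 8415 in KO LSCs. Its relatives of the GAB family were low in both libraries, with Gab1 at 0.889 FPKM in WT LSCs and 1.03 FPKM in KO LSCs and Gab3 at 2.43 and 2.14 FPKM. Its partner Grb2, the adaptor that links receptors to Ras, had 85.96 and 52.3 FPKM, below the cut-off. Gab2 had thus 0.608 of the FPKM of Grb2 in WT LSCs and 0.0700 of it in KO LSCs.

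Lat2, the membrane adaptor also known as NTAL, had 503 FPKM in WT LSCs and 99.4 FPKM in KO LSCs. The WT value was 5.06 times the KO value (4.79 to 5.36), and its rank was 1246 in KO LSCs. Lat2 is a minus-strand gene of chromosome 5 (134600022 to 134615025). Of its exon bases, 36.3% are shared with Rfc2 on the other strand, and the library kit does not mark strand, so that reads there cannot be assigned. The counting interval of the Lat2 ratio does not cover this. Rfc2, a subunit of the clamp loader of DNA replication, had 220 FPKM in WT LSCs and 233 FPKM in KO LSCs. Lat, a minus-strand gene of chromosome 7 (126363824 to 126369570), had 169 and 86.7 FPKM, a difference of 1.95 times (1.83 to 2.08). The membrane adaptors were thus both lower in KO LSCs, Lat2 by the larger factor.

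Lcp2, which encodes SLP-76 on the plus strand of chromosome 11 (from 34046920 to 34092295), had 211 FPKM in WT LSCs and 56.9 FPKM in KO LSCs. The WT value was 3.70 times the KO value (3.52 to 3.90). Of its exon bases 6.32% overlap an antisense gene. Its link to LAT, Grap2 (plus strand of chromosome 15, 80572594 to 80652854), had 0.787 and 0.352 FPKM, 2.23 times apart, but this rests on 31.1 and 19.4 estimated reads. If the shortest coding transcript of Grap2 is taken instead of the longest, these become 6.40 and 4.01 reads and the interval of the WT to KO ratio runs from 0.497 to 10.1. The call of Grap2 was therefore not resolved from counting error. Grap, a relative of GRB2 (plus strand of chromosome 11, 61653265 to 61672784), was about 29.2 times as abundant as Grap2 in KO LSCs and 25.8 times in WT LSCs. Its 20.3 and 10.3 FPKM differed by 1.97 times (1.6 to 2.43).

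Stap2 and Sh3bp2 did not share this direction. Stap2, the relative of Stap1 (minus strand of chromosome 17, 55997077 to 56005584), had 2.60 FPKM in WT LSCs and 4.91 FPKM in KO LSCs, or 27.0 and 71.4 estimated reads. The KO value was 1.89 times the WT value, with a counting interval from 1.19 to 3.05 that does not reach 1 but includes the cut-off. Stap1 was 23.9 times as abundant as Stap2 in WT LSCs and 0.0629 times in KO LSCs. Sh3bp2, an adaptor of Syk (plus strand of chromosome 5, 34525838 to 34563641), had 3.57 and 4.41 FPKM, and the interval of its KO to WT ratio, from 0.915 to 1.65, included 1. A difference in Sh3bp2 was not detectable at this depth. Blnk (minus strand of chromosome 19, 40928927 to 40994535) was listed at 0 FPKM in WT LSCs and had 0.253 FPKM in KO LSCs, so that no fold is given. In the WT library 3 reads of Blnk would amount to 0.0926 FPKM.

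**Figure D2:**
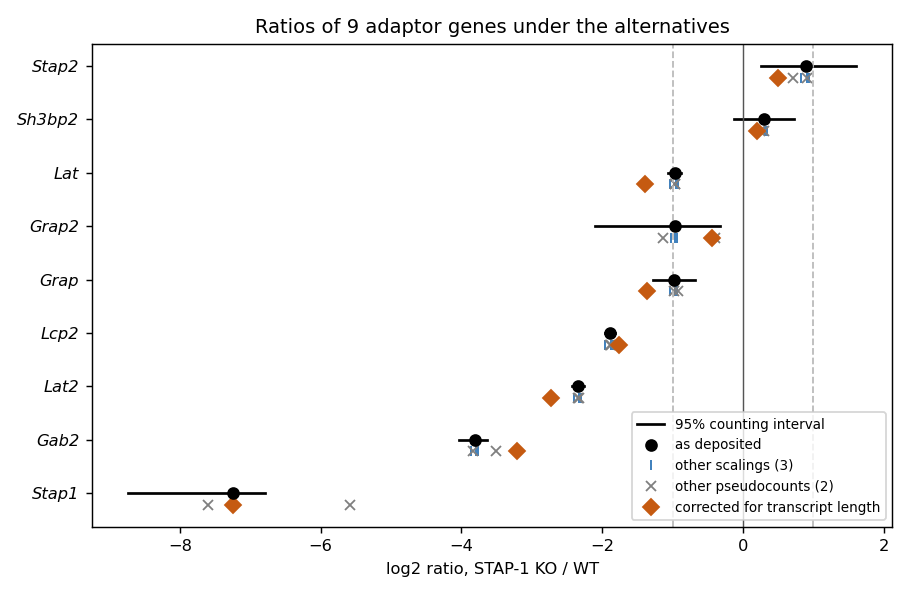
Log2 ratios of STAP-1 KO to WT for the 9 adaptor genes above 0 in both libraries, with black lines for the 95% counting interval and other symbols for other scalings, pseudocounts and a correction for transcript length; dashed lines mark 2-fold. Stap1, Gab2, Lat2 and Lcp2 stay below the 2-fold line in every setting drawn, whereas Lat, Grap and Grap2 lie near it.

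Promoter windows of 6 of the 10 genes were found in the RefSeq table of GRCm38.p6, while Stap1, Lat2, Grap and Gab2 had no entry. To show the sequence upstream of a gene past the cut-off, of its partner and of a gene that was not lower, the 250 bases before the start of Lcp2, of Lat and of 1 of the 2 starts listed for Sh3bp2 are given 5′ to 3′ on the strand of the gene. Capitals mark matches, on either strand, to a core motif of GATA factors (AGATAA), to one of ETS factors (GGAAGT) and to one of RUNX factors (TGTGGT), all of which act in blood cells. These motifs were chosen after the sequences had been seen. The window of Sh3bp2 lies inside the gene as GENCODE annotates it, at a downstream start.
Lcp2, chr11:34046678-34046927, plus strand: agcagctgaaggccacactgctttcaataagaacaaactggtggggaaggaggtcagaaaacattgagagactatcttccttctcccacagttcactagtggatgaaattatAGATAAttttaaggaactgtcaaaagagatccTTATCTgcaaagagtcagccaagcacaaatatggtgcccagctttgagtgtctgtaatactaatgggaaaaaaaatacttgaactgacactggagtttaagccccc
Lat, chr7:126369569-126369818, minus strand: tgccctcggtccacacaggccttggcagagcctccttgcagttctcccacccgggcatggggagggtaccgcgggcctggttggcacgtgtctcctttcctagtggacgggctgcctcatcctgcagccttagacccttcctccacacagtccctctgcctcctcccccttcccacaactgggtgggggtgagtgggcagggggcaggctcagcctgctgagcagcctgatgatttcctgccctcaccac
Sh3bp2, chr5:34543115-34543364, plus strand: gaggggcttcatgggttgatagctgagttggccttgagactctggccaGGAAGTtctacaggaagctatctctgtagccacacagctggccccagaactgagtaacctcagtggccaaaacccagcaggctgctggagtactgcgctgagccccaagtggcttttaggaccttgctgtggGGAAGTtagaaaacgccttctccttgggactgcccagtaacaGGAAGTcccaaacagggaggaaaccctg

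The window of Lcp2 held 2 GATA matches, and 9.99% of all 32851 windows of this length held at least 1. The window of Lat held no match to any of these motifs. The printed window of Sh3bp2 held 3 ETS matches and its other window 1, and 19.7% of all windows held at least 1. Of the genes whose windows are not printed, Grap2 had no match, Blnk had 1 ETS match and Stap2 had 1 RUNX match in 1 of 2 windows. For RUNX the share of all windows was 14%. A match is a run of letters and not a bound site.

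The ratio of these libraries moved with the length of the transcript. Across 10863 genes that averaged 1 FPKM or more and had an annotated length, Spearman's rank correlation of log2 ratio and length was -0.37. It is a description across genes of 1 pair of libraries. The 544 genes with the shortest transcripts had a median log2 ratio of 0.48 and the 544 with the longest one of -1.0. Genes as long as Gab2 had a median of -0.59, and subtracting it left -3.21 for Gab2. Lat2 (1717 bases), Lat (2053 bases) and Grap (1662 bases) are short, and after the subtraction their log2 ratios were -2.73, -1.39 and -1.37, so that Lat and Grap passed 2-fold as well. After the subtraction 6 of the 9 adaptor genes were lower and none was higher, against 19.4% and 11.8% of all genes. Lcp2 (3644 bases) went from -1.89 to -1.76 and Stap2 from 0.89 to 0.50. Grap2, with a longest transcript of 5475 bases, went from -0.97 to -0.43 on this scale, short of 2-fold at both. Its call on the FPKM ratio itself was lost after the subtraction.

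**Figure D3:**
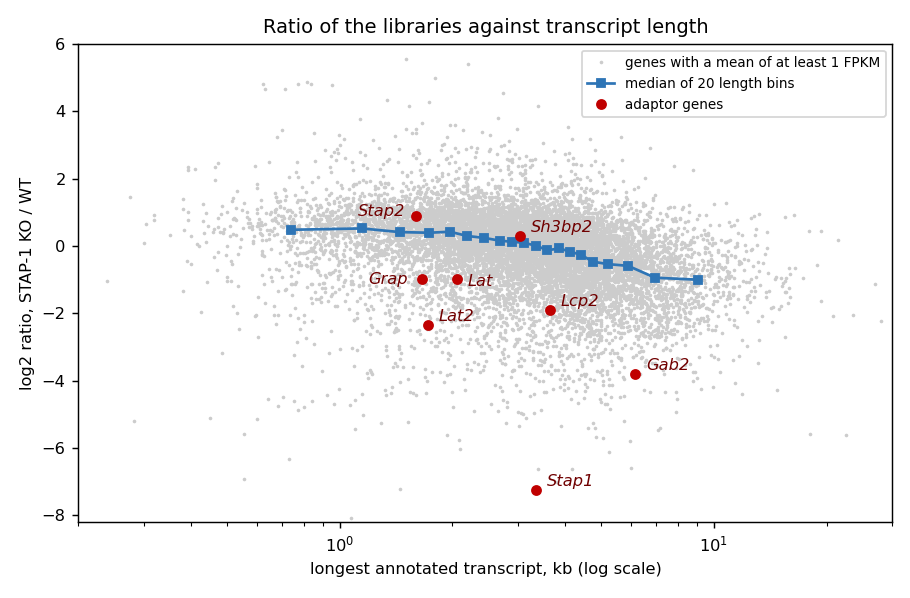
Log2 ratio of STAP-1 KO to WT against the longest annotated transcript (kb, log axis) for genes that averaged 1 FPKM or more (gray), with the medians of 20 length bins (blue) and the adaptor genes of that level (red). Lat2, Lat and Grap lie below the median of genes of their length, where short transcripts were mostly above 0, and Gab2 and Lcp2 lie below theirs.

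Effectors that act below these adaptors, enzymes and other proteins, were examined next, from a list of 20 genes. Of the 20, 14 were 2-fold or more below WT and none was at least 2-fold higher, against 22.9% and 12.3% of all genes. Prkcb, a protein kinase C, had 80.3 FPKM in WT LSCs and 5.16 FPKM in KO LSCs. Nfatc2, a transcription factor activated by calcium, had 9.58 and 0.770 FPKM. The PI3K subunit gene Pik3cd had 129 and 31.8 FPKM and the protein kinase C gene Prkcq 83.8 and 20.7 FPKM. The phospholipase C-gamma genes differed in this respect. Plcg1, the partner of LAT, had 34.2 and 4.02 FPKM, whereas Plcg2, the partner of BLNK, had 32.5 and 29.2 FPKM. Vav1, an exchange factor bound by SLP-76, had 58.9 and 57.2 FPKM, and Ptpn11, which encodes SHP2 and binds GAB2, had 6.41 and 5.81 FPKM. Plcg2, Vav1 and Ptpn11 were chosen as partners after their values had been seen. After the correction for length, 9 of the 20 were lower and 1 was higher, against 19.4% and 11.8% of all genes.

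Of 15 tyrosine kinases upstream of the adaptors, 14 were above the floor in both libraries, 10 of them at least 2-fold lower and 1 higher, against 22.9% and 12.3% of all genes. With the median log2 ratio of all genes set to 0, 8 were lower, against 22.1% of all genes. Zap70, a Syk family kinase of T cells, had 8.59 FPKM in WT LSCs and 0.581 FPKM in KO LSCs. Jak2 had 48.2 and 13.1 FPKM, and the Tec family kinase gene Txk (73.9 and 21.4 FPKM) was also lower. The Src family kinase Lck went the other way, with 11.8 and 41.9 FPKM. Tec, whose kinase phosphorylates STAP-1, had 63.0 and 30.2 FPKM, just past the cut-off, and Syk had 27.1 and 14.02 FPKM, just short of it. Tec and Syk were also chosen after their values had been seen. Lck was the 1 gene of this list past the cut-off upward.

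Of 38 further adaptor genes, 37 were in the files and 36 above the floor, with 12 at least 2-fold lower and 4 at least 2-fold higher, against 22.9% and 12.3% of all genes. Irs2 (57.7 and 8.96 FPKM), Dok3 (59.9 and 12.1 FPKM) and Sh2b3 (35.02 and 7.86 FPKM), the last a brake on JAK2, were lower in KO LSCs. Lax1 (1.64 and 11.9 FPKM) and Trat1 (0.561 and 5.82 FPKM), membrane adaptors of lymphocytes, were higher. The share of lower genes was 33.3%. Of the 30 genes averaging 1 FPKM or more, 22 had a log2 ratio below 0, against 5671 of all 10974 genes with that mean. The median of the 30 was -0.58, against -0.04 for all genes. After the correction for transcript length it was -0.40, against 0 for all genes.

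Receptor genes that signal through the adaptors were divided. Of 16 genes, 14 were above the floor, with 6 at least 2-fold lower and 3 higher, against 22.9% and 12.3% of all genes. Kit had 468 FPKM in WT LSCs and 30.1 FPKM in KO LSCs. The chains of the IgE receptor, Fcer1a (1828 and 218 FPKM) and Ms4a2 (163 and 18.0 FPKM), and the signaling chain Tyrobp (992 and 238 FPKM) were lower as well. Cd79b, a chain of the B cell receptor, had 3.10 and 17.8 FPKM. Among 10 brakes on receptor signaling, 5 were lower and 2 higher, against the same shares of all genes. Lilrb4 had 2391 and 185 FPKM, Lilrb3 (now named Pirb) 90.5 and 7.01 FPKM, and the lipid phosphatase gene Inpp5d 112 and 16.4 FPKM. Cblb (6.98 and 1.69 FPKM) and Ubash3b (29.5 and 9.88 FPKM) were also lower. The higher genes, named after their values were seen, were Ptpn22 (3.86 and 10.7 FPKM) and Ubash3a (6.37 and 14.4 FPKM), a pair of phosphatase family genes of lymphocytes.

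**Figure D4:**
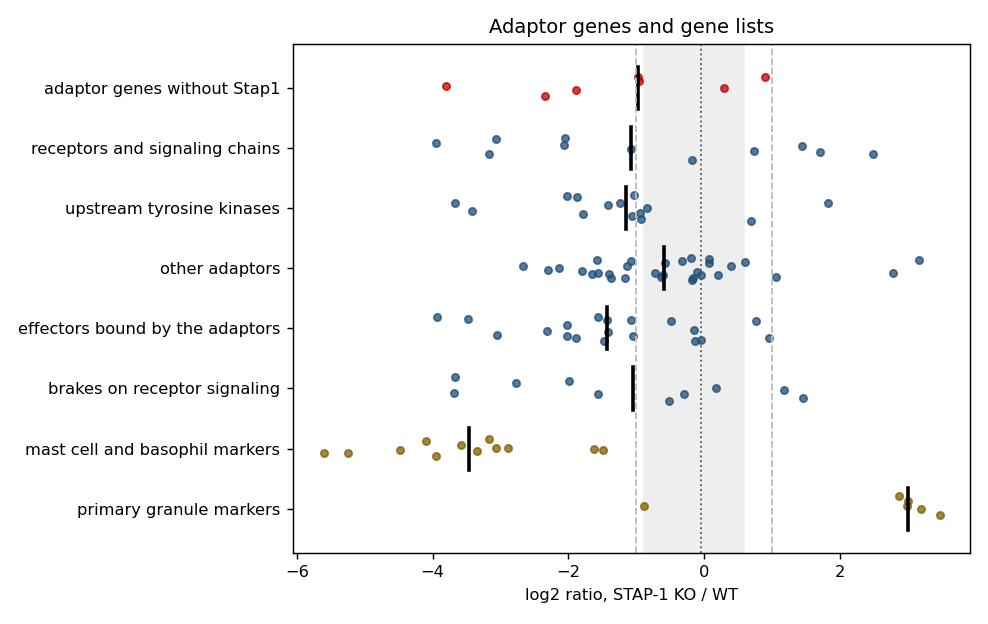
Log2 ratios of STAP-1 KO to WT for genes that averaged 1 FPKM or more in each list (points), with the median of each list (black bar), the median of all such genes (dotted line), the middle 50% of all such genes (gray band) and 2-fold (dashed lines). The adaptor genes without Stap1 have a median of -0.97, the mast cell and basophil markers -3.46 and the primary granule markers 3.0.

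Markers of mature cell types differed along with these genes. For each count of markers past the 2-fold cut-off, the shares of all genes are again 22.9% lower and 12.3% higher. Kit, Fcer1a and Ms4a2 stand both among the receptor genes and among the mast cell and basophil markers. All 12 mast cell and basophil markers were 2-fold or more below WT, none was at 0, and their summed level was 52789 FPKM in WT LSCs and 5328 FPKM in KO LSCs. Cpa3, a mast cell carboxypeptidase, had 17984 and 1775 FPKM, Cma1 13924 and 1168 FPKM and Tpsb2 7016 and 185 FPKM. Mast cells are known to use LAT, LAT2, SLP-76 and GAB2 below the IgE receptor. In bulk RNA, fewer cells of a type and less RNA per cell cannot be told apart, and the part of the mast cell markers in the ratios of Lat2, Lcp2, Gab2 and Lat was not tested. The sum of the mast cell markers differed by 9.91 times, Gab2 by 14.3 times and the sum of Lat, Lat2 and Lcp2 by 3.64 times. Most primary granule markers went the other way, with a sum of 1051 FPKM in WT LSCs and 4887 FPKM in KO LSCs, 5 of 6 listed genes at least 2-fold higher and none at 0. Mpo had 248 and 1973 FPKM, Ctsg 104 and 841 FPKM and Elane 112 and 823 FPKM. The remaining gene of the 6, Cst7, named after its values were seen, was lower in KO LSCs (487 and 264 FPKM). Cst7 had the highest value of the 6 in WT LSCs.

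Most lymphoid markers were low. For the counts below, the shares of all genes past the 2-fold cut-off are again 22.9% lower and 12.3% higher. The 12 T and NK cell markers summed to 7.0 FPKM in WT LSCs and 11.9 FPKM in KO LSCs, with Cd8b1 at 0 in both. Of the 9 above the floor, 1 was at least 2-fold lower and 4 were higher. The NK cell genes Klrb1c (0.718 and 0.0790 FPKM) and Ncr1 (0.319 and 0.0761 FPKM), named after their values were seen, were under the floor in KO LSCs only. Cd3g had 1.80 and 5.04 FPKM, Cd2 0.285 and 1.94 FPKM and Cd3e 0.869 and 1.09 FPKM. The 10 B cell markers summed to 4.32 and 19.3 FPKM, mostly from Cd79b. Of the 3 above the floor, none was at least 2-fold lower and 2 were higher. Ms4a1 (0.505 and 0.0517 FPKM), named after its values were seen, was under the floor in KO LSCs only. Pax5, Ebf1 and Cr2 were listed at 0 in both libraries and Cd79a in WT LSCs, while Vpreb1 had 0.476 and 0.853 FPKM and Igll1 0.202 and 0.433 FPKM. Megakaryocyte and platelet markers summed to 220 and 140 FPKM, with 3 of 8 genes above the floor lower and 1 higher, Itga2b at 123 and 32.5 FPKM, Pf4 at 57.9 and 71.2 FPKM Gp1ba at 19.6 and 4.43 FPKM and Gp6 listed at 0 in WT LSCs. Monocyte and macrophage markers summed to 210 and 157 FPKM, with 4 of 8 lower and 2 higher, Cd68 at 95.7 and 26.3 FPKM, Ly6c2 at 20.5 and 97.96 FPKM and Ccr2 at 41.8 and 10.3 FPKM, while Ms4a7 was listed at 0 in KO LSCs. Erythroid markers summed to 791 and 436 FPKM, with 3 of 8 lower, Car1 at 250 and 88.4 FPKM, Klf1 at 103 and 108 FPKM and Tfrc at 128 and 75.4 FPKM. The genes of the antigens used in the sort, Kit, the Sca-1 gene Ly6a (285 and 106 FPKM) and the CD45 gene Ptprc (107 and 38.2 FPKM), were each at least 2-fold lower. Cd34, a progenitor antigen not used in the sort, had 281 and 194 FPKM. What share of the adaptor mRNA came from each of these cell types was not tested.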

How the data were processed

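The deposited FPKM values had been made by the authors, who mapped 75-base single-end reads to mm10 with TopHat 2.0.13 and Bowtie2 2.2.3 and ran Cuffnorm of Cufflinks 2.2.1. SAMtools is given as 1.0 in the methods and as 0.1.19 in the submitters' processing notes. The annotation and the scaling option are not given in the sources used here. Each file holds 1 library, and whether mice were pooled for it is not given in the sources used here. The SMART-Seq and Nextera kits do not mark strand.

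Ratios were computed in scipy 1.17.1, pandas 2.3.3 and numpy 2.4.6 under Python 3.11.15. Lengths, coordinates and exon overlaps came from GENCODE M21 (GRCm38), to which 22825 symbols matched, 20911 of them as written. Depth was estimated from genes with 1 annotated transcript, and 208 bases were taken off each transcript in both libraries. Intervals are Poisson exact for levels and Clopper-Pearson, given the sum of reads, for ratios. The calling, depth and length steps were tested on simulated data. Simulated reads were whole and used the same transcript lengths as the depth step, so that they do not check the depths estimated here. No test across samples was possible with 1 library per genotype.

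The members and all lists were chosen with earlier results of these data known. Beside the 10 adaptor genes, the text names up to 5 genes of each of 5 pathway lists (at least 5 FPKM in 1 library, largest absolute log2 ratio at a pseudocount of 1) and the 3 highest genes of each marker list. Genes named outside this rule are marked as such, or are relatives, partners, overlapping genes, markers at 0, the sort gene Ptprc or the sex-linked genes Xist and Eif2s3y. Themis2 and Azu1 were not matched. Some genes of these lists are not reported here. Other pseudocounts, floors, cut-offs and scalings and a length correction in 20 bins were tried.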

Additional observations from a re-analysis of the deposited data

How the results depend on the processing

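The counts of genes past the cut-off depended on the floor and the cut-off. Without a floor and with a pseudocount of 0.1 FPKM, 1 adaptor gene (Blnk) was higher, as were 5 receptor genes and 2 kinases, against 8.37% of all genes. At a 4-fold cut-off 3 adaptor genes, 5 receptor genes, 3 kinases, 3 other adaptors, 6 effectors and 4 brakes were lower, and 1 receptor gene, 0 kinases, 2 other adaptors and 0 brakes were higher, against 8.56% and 2.4% of all genes. With the median log2 ratio set to 0, 1 effector was higher, against 13.2% of all genes, and after the correction for transcript length 9 effectors were lower and 1 was higher, against 19.4% and 11.8% of all genes. Grap2 was not past 2-fold with a pseudocount of 0.1 FPKM and no floor or after the length correction, and at a mean of 1 FPKM it was not compared. When the libraries were scaled to the same total without the 100 highest genes, 7 adaptor genes were lower, with Lat and Grap added, against 24.3% of all genes. Among genes averaging 1 FPKM or more 4 were, against 22.2%. Stap1, Lat2 and Gab2 were among the lower genes in each of the 7 alternatives, and Lcp2 in each but the 4-fold cut-off. The median log2 ratio of the 9 genes other than Stap1 was -0.97, and -0.92 with a pseudocount of 1 FPKM and -1.37 after the length correction as its extremes. Log2 ratios ranged from -3.87 to -3.21 for Gab2, from -2.73 to -2.30 for Lat2, from -1.95 to -1.76 for Lcp2 and from -7.60 to -5.59 for Stap1. No paired analysis was possible because each genotype had 1 library. Depth limits Blnk, Grap2, Stap2 and Sh3bp2, and no value has an estimate of the variation between mice or library preparations.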
